A study of Mus musculus with 9 samples.

Results

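The miR-10 and miR-196 families are microRNAs (miRNAs) transcribed from within the Hox clusters, the arrays of homeodomain transcription factor genes that set position along the body axis. A miRNA is a short RNA that guides Argonaute proteins to messenger RNAs, chosen mainly by pairing of its seed, bases 2 to 8 from the 5′ end, and lowers their translation and stability. Both families are expressed together with the Hox genes beside them, and several Hox messages are among their targets. The best known is Hoxb8, which miR-196 pairs with almost perfectly and directs to cleavage in mouse embryos. miR-10a also restrains inflammatory signalling in vascular endothelium, as described in cultured endothelial cells and porcine aorta. The members were the guide-strand probes mmu-miR-10a, mmu-miR-10b, mmu-miR-196a and mmu-miR-196b, taken by their exact names and excluding the star (passenger) strands. They were 4 of the 1135 probes on the array, of which 1096 are named for mouse miRNAs and the other 39 for viral ones.

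Total RNA of glomeruli, the filtering units of the kidney, was profiled on 9 single-colour 3D-Gene miRNA arrays, 3 for each of 3 groups of untreated female mice. Controls were 9-month-old C57BL/6 mice without disease, the early GN group was 9-month-old B6.MRLc1 mice with early glomerulonephritis, and the late GN group was 14-month-old B6.MRLc1 mice with late glomerulonephritis. B6.MRLc1 is a congenic line with a chromosome 1 segment of the autoimmune-prone MRL strain on the C57BL/6 background, so both GN groups carried the same segment and the controls did not. The late GN mice were also older than the controls, so strain, disease stage and age cannot be told apart in that comparison. Strain and disease cannot be told apart in early GN against control, nor disease stage and age in late GN against early GN. The strain field of the early GN samples reads C57BL/6, against their titles and disease state, and the series' design text gives the ages of the early and late stages the other way round. The titles, which the age and disease fields and the study's methods match, were followed. Glomeruli were isolated by perfusion with magnetic beads, which yields podocytes, endothelium and mesangium together with any blood cells that they hold. In such bulk RNA, fewer cells of a type and less miRNA per cell cannot be told apart. The study's methods give 3 mice for each group.

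All 4 members were found in RefSeq (GRCm38.p6) under their names with the arm added, each as the 5p strand. The 4 mature sequences are printed to show how alike the members of a family are, with the seed in capitals.
miR-10a: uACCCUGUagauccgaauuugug
miR-10b: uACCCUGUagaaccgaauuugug
miR-196a: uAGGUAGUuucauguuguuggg
miR-196b: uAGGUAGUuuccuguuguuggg
Within each family the seed is the same, and no other of the 1679 mature mouse miRNAs in the table has either seed. Each pair differs at a single base, counted from 1 at the 5′ end: U12A between miR-10a and miR-10b, and A12C between miR-196a and miR-196b. The identity was 95.7% and 95.5%, so part of the signal of a probe may come from its near-identical partner, and how far the probes separate them was not tested.

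The 2 families are also close to larger ones outside the Hox clusters, shown by miR-100 and let-7a, with the longest run that each shares with miR-10a or miR-196a in capitals.
miR-100: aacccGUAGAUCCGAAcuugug
let-7a: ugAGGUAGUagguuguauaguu
miR-100 shares 11 bases with miR-10a (bases 6 to 16 of miR-100 and 7 to 17 of miR-10a) but has another seed. let-7a carries all 7 bases of the miR-196 seed, shifted by 1 position, at its bases 3 to 9.

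The members come from 5 loci in all 4 Hox clusters. Mir10a lies on chromosome 11 inside the span of Hoxb3, next to Hoxb4, and Mir10b on chromosome 2 inside the spans of Hoxd3 and Hoxd4. Mir196b lies on chromosome 6 between Hoxa9 and Hoxa10. miR-196a is made from 2 genes, Mir196a-1 on chromosome 11 between Hoxb13 and Hoxb9 and Mir196a-2 on chromosome 15 between Hoxc10 and Hoxc9. The hairpins of these 2 genes are printed, with both arms in capitals, because their guide arms are identical and their passenger arms are not (GRCm38.p6, plus strand, chr11:96265164-96265265 and chr15:102973350-102973434).
Mir196a-1: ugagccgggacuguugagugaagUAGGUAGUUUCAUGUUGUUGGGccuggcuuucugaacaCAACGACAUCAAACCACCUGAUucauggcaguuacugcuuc
Mir196a-2: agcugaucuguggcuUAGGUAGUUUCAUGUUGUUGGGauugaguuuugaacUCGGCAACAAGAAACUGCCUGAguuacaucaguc
The mmu-miR-196a probe therefore reads both genes as a single value.

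Values are the authors' normalized intensities, in arbitrary units, in which the median of the values listed on an array is 25. Of the 1135 probes, 411 had a value on all 9 arrays, and all 4 members were among them, so none was lost to the filter on low values. Between 428 and 755 probes were listed per array. The median log2 ratio of the 411 probes to their control mean was -1.03 and -0.61 for the first 2 arrays of early GN, 0.51 for its array 3 and between 0.33 and 0.44 for late GN. Early GN array 3 therefore stood apart from the other arrays of its group over all probes. The arrays lay on 5 slides, and only 1 slide, with control array 3 and early GN array 1, carried different groups.

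The miR-10 pair was bright and the miR-196 pair dimmer, though levels of different probes are not compared here because a probe's brightness depends on its own hybridization. For mmu-miR-10a, the control arrays read 3813, 4258 and 3652, the early GN arrays 1478, 1671 and 3292, and the late GN arrays 2725, 2332 and 2428. Every GN array was below every control array, and early GN array 3 stood well above the other two of its group. The group means were 3907 ± 314 in control, 2147 ± 997 in early GN and 2495 ± 205 in late GN (SD, n = 3). mmu-miR-10b read 3285, 3666 and 2596 in control, 1078, 1488 and 3186 in early GN, with 2153, 1928 and 2062 in late GN. Here the late GN arrays were all below the controls, while early GN array 3 lay inside the control range. Its means were 3183 ± 542 in control, 1917 ± 1118 in early GN and 2048 ± 113 in late GN.

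mmu-miR-196a, the product of the Hoxb and Hoxc cluster genes, read 289, 292 and 265 in control, 124, 139 and 283 in early GN, with 207, 156 and 194 in late GN. The late GN arrays were again separate from the controls, and early GN array 3 again fell among the controls. Its means were 282 ± 14.6, 182 ± 88.1 and 186 ± 26.5 in control, early GN and late GN. mmu-miR-196b, from the Hoxa cluster, read 159, 187 and 170.45 in control, 75.2, 74.6 and 187 in early GN, with 131, 116 and 117 in late GN. Like its partner, it was below control on every late GN array, with early GN array 3 at the level of the highest control. Its means were 172 ± 14.2, 112 ± 64.7 and 121 ± 8.72. Late GN means were thus 63.8% to 70.4% of the control means over the 4 members, and early GN means 54.9% to 65.2%.

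**Figure D1:**
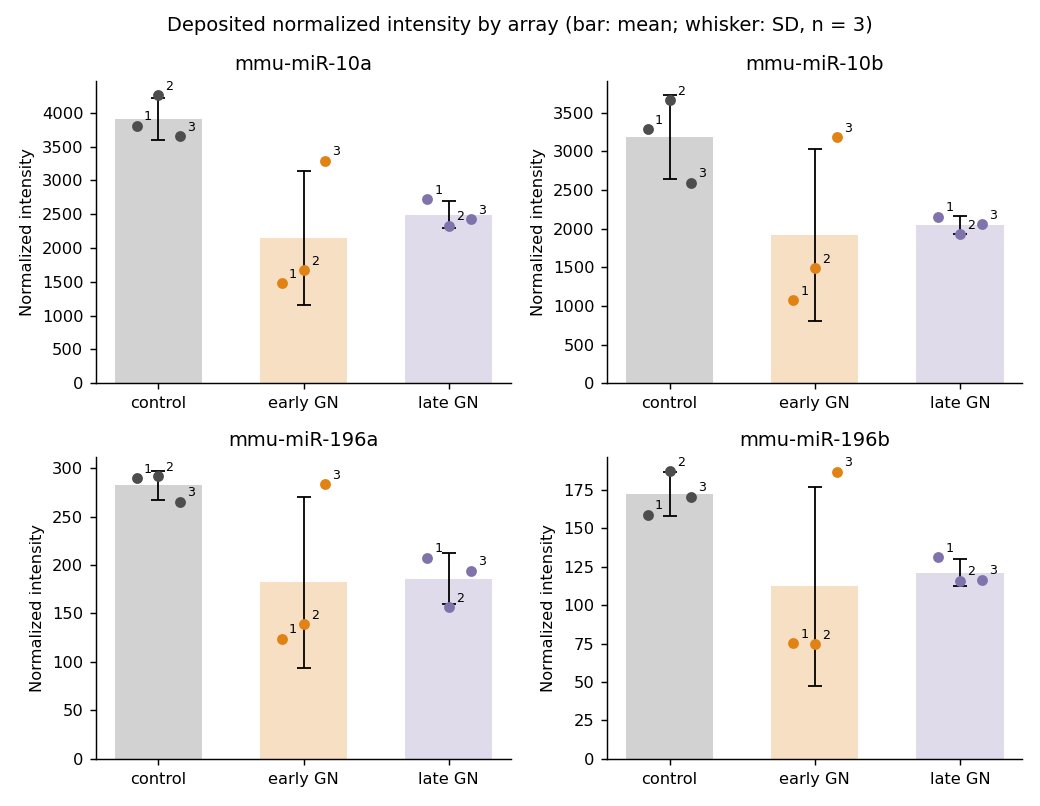
Normalized intensity (linear axis from 0, arbitrary units) of the 4 members on each array, numbered within its group; bars are group means and whiskers the SD over 3 arrays. All late GN points lie below all control points for each member, while early GN array 3 (3292, 3186, 283 and 187) sits far above the other early GN arrays.

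The first comparison asked whether the members differ between early GN and control. On the deposited scale all 4 members read lower in early GN, and none passed the test. The log2 fold changes were -0.96 for mmu-miR-10a, -0.87 for mmu-miR-10b, -0.73 for mmu-miR-196a and -0.76 for mmu-miR-196b, each with a standard error of 0.44 (limma over all 411 probes). In this fit limma gave every probe the same standard error. It and the p-values rest on a spread pooled over all probes, not on each member's own. The limma p-values adjusted by Benjamini-Hochberg over all probes ran from 0.26 to 0.36, and 1 member, mmu-miR-10a, had an unadjusted p under 0.05. Of all 411 probes, 0% were called lower on this scale (0 probes, with 56 lower and 9 higher at an unadjusted p under 0.05, and 1 called higher), and the median log2 fold change over all of them was -0.38. The members' median was -0.81. Of the members, 1 of 4 had every early GN array below every control array, against 6.33% of all probes.

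The second comparison asked the same of late GN, with the same control arrays. On the deposited scale the 4 members again read lower, with log2 fold changes of -0.65 for mmu-miR-10a, -0.62 for mmu-miR-10b, -0.61 for mmu-miR-196a and -0.51 for mmu-miR-196b (the same pooled standard error, 0.44). None passed the test, with adjusted p-values of 0.30 to 0.41 in limma. At the same fold changes, all 4 were called lower in a limma fit without the early GN group (adjusted p between 0.0040 and 0.015), which called 17.5% of all probes lower, and by the methods' t-test, which called 14.1%. In the fit of all 9 arrays, 0.243% of the 411 probes were called lower (1 probe) and 16 probes were called higher. The median over all probes was 0.45, so the members lay 0.95 to 1.09 below the general shift on the log2 scale. All 4 members had every late GN array below every control array, against 21.7% of all probes. With 3 arrays a group, an exact two-sided permutation test of a single member cannot give a p below 0.1, and it gave 0.1 for each of them.

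Leaving out early GN array 3 changed the calls of all 3 comparisons. Without that array, all 4 members were called lower in both comparisons, with log2 fold changes of -1.31, -1.31, -1.10 and -1.20 in early GN (limma, adjusted p between 0.00070 and 0.0011) and unmoved values in late GN (adjusted p between 0.014 and 0.029). Of all 411 probes, 56.4% were then called lower in early GN and 13.6% in late GN. In the third comparison, late GN against early GN, the 4 members were 0.12 to 0.31 higher in late GN on the log2 scale with all arrays (adjusted p between 0.60 and 0.83, limma), and without early GN array 3 they were 0.49 to 0.69 higher and called in 4 of 4 members (adjusted p between 0.0065 and 0.040), as were 91.5% of all probes. With all arrays, 1.46% of the 411 probes were called higher in late GN than in early GN, and none of the members was.

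The place of a member among the 411 fold changes does not depend on the factor by which a whole array is multiplied. In late GN, 26, 33, 39 and 58 of the 411 probes had a lower log2 fold change than mmu-miR-10a, mmu-miR-10b, mmu-miR-196a and mmu-miR-196b, so the members lay in the lowest 6.33% to 14.1%. In early GN, 41, 56, 100 and 86 probes lay lower, which put the members in the lowest 9.98% to 24.3%. The miR-10 pair thus stood nearer the low end than the miR-196 pair in early GN. Within arrays, the log2 ratio of the miR-10 pair to the miR-196 pair differed from control by -0.17, with a standard error of 0.10. That difference did not pass (exact permutation test, p = 0.2).

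**Figure D2:**
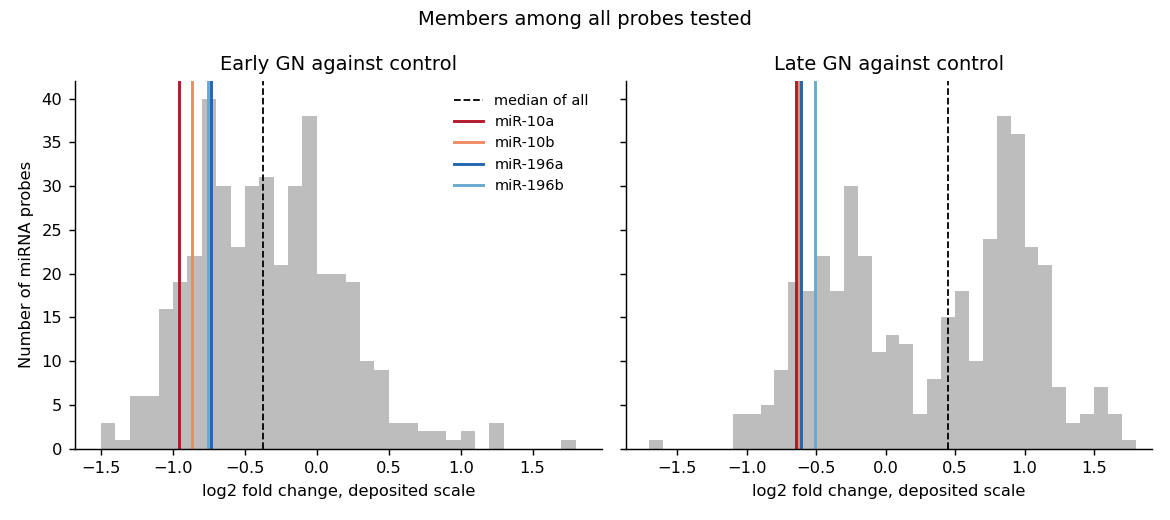
Number of probes (vertical axis) by log2 fold change on the deposited scale (horizontal axis, bins of 0.1) for the 411 probes listed on all arrays, with the members as coloured lines and the median of all probes as a dashed line. The members lie left of the dashed line in both comparisons, at -0.96 to -0.73 in early GN (median of all -0.38) and at -0.65 to -0.51 in late GN (median of all 0.45).

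Which members were called depended on the scaling of whole arrays. For bright spots the deposited values were close to the signal above the blank spots multiplied by a factor for each array. This factor was between 1.67 and 1.97 in control, 1.10, 1.25 and 2.34 in early GN, and between 1.30 and 1.88 in late GN. Before that factor, mmu-miR-10a read 2265, 2413 and 1824 units above the blank spots in control, 1358, 1348 and 1395 in early GN, with 1476, 1307 and 1913 in late GN. Early GN array 3 was then level with the other 2 early GN arrays, and late GN array 3 lay inside the control range. Without the factor, 3 of 4 members had every early GN array below every control array, against 19.5% of all probes, with mmu-miR-10b the exception. In late GN 0 of 4 did, against 6.57% of all probes. In limma on these unscaled signals the members' median log2 fold change stood at -0.51 for early and -0.49 for late GN, with no member called (lowest adjusted p 0.17 and 0.13). The median over all 411 probes was -0.13 for early and 0.55 for late GN. Of all probes, 0% were called lower and 1.46% higher in early GN, with 1.46% lower and 38.9% higher in late GN. The detector gain was 35 on 6 arrays, 36 on early GN array 1 and late GN array 2, and 37 on late GN array 3. At gain 35 alone, mmu-miR-10a read 1824 to 2413 on 3 control arrays, 1348 and 1395 on 2 early GN arrays and 1476 on 1 late GN array, with no overlap of control and GN. For mmu-miR-10b, mmu-miR-196a and mmu-miR-196b at gain 35, the single late GN array was also below the 3 controls. The early GN arrays overlapped the controls for mmu-miR-10b alone. The share of all probes with such a separation at gain 35 was not computed, so these values are a description and not a result about the members.

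With the arrays instead set to a common median over the 411 probes, all 4 members were called lower in late GN, and 29.9% of all probes were called lower with them (123 lower and 132 higher). The log2 fold changes in late GN were -0.96 ± 0.16 for mmu-miR-10a, -0.94 ± 0.18 for mmu-miR-10b, -0.93 ± 0.17 for mmu-miR-196a and -0.82 ± 0.17 for mmu-miR-196b (± standard error), with adjusted p between 0.0024 and 0.0036 in limma. These calls held when any single array was left out, with the highest adjusted p at 0.017. All 4 had every late GN array below every control array, against 35.5% of all probes. The members' median of -0.93 compares with 0.13 over all probes.

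On the same scale, early GN gave 1 call among the members, mmu-miR-10a at -0.57 ± 0.16 (limma, adjusted p = 0.047), and 3.89% of all probes were called lower (16 lower and 28 higher). That call was lost without any 1 of the 3 control arrays, of early GN arrays 2 and 3, or of late GN arrays 1 and 3 (adjusted p between 0.065 and 0.13). mmu-miR-10b was at -0.49, mmu-miR-196a at -0.35 and mmu-miR-196b at -0.37, with adjusted p between 0.069 and 0.16. All 4 had every early GN array below every control array, against 23.4% of all probes. On this scale the late GN arrays were also below the early GN arrays for all 4 members, with log2 fold changes between -0.58 and -0.39, opposite in sign to the deposited scale, and 18.5% of all probes had this separation of the groups. None passed (limma, adjusted p between 0.10 and 0.19), and 0.243% of all probes were called lower.

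**Figure D3:**
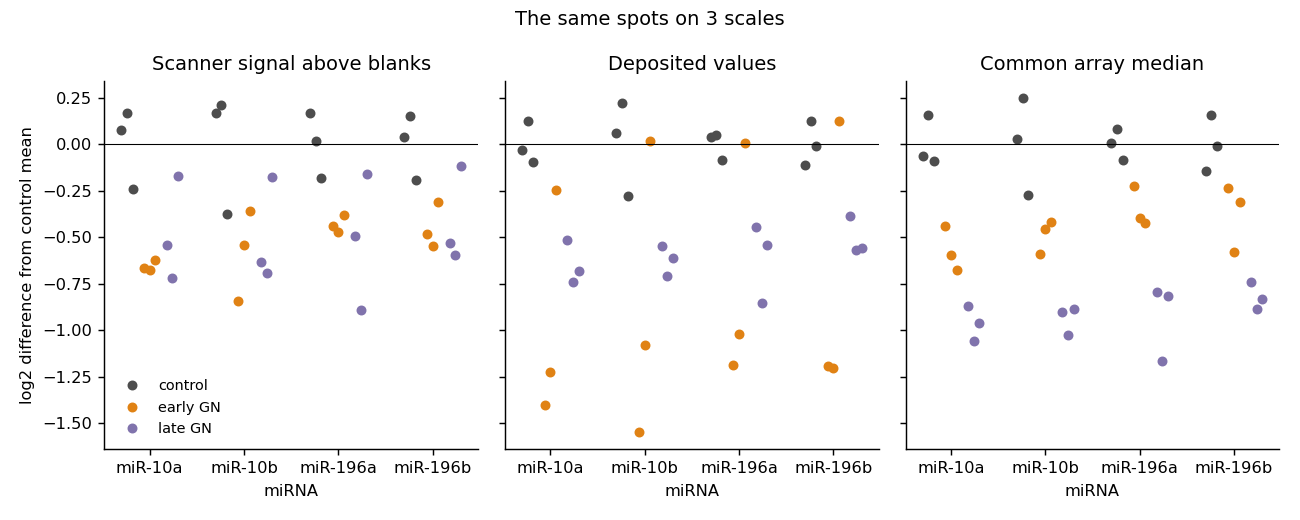
log2 difference of each array from the control mean for the 4 members, from the unscaled scanner signal above the blank spots, the deposited values and the values at a common array median; each point is an array and colours mark the groups. The order of early and late GN depends on the scale, and every late GN point is below every control point on the deposited and common-median scales but not on the unscaled one.

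On the 1 slide with arrays of different groups, every member was lower on early GN array 1 than on control array 3, with log2 differences of -1.30 for mmu-miR-10a, -1.27 for mmu-miR-10b, -1.10 for mmu-miR-196a and -1.18 for mmu-miR-196b. The median over all 411 probes between these 2 arrays was -1.01, and at a common median the members' differences were -0.35, -0.31, -0.14 and -0.23. All late GN arrays were on slides without another group, so late GN and slide cannot be told apart within a slide. With slide as a random block, no member was called on the deposited scale in either comparison with control (limma, adjusted p between 0.27 and 0.45).

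Ratios between members on the same array do not depend on the array factor, and asked whether the members moved apart from each other. The level of such a ratio has no meaning across probes, and only its difference between groups was read. The log2 ratio of miR-10a to miR-10b was 0.31 ± 0.16 in control, 0.22 ± 0.21 in early GN and 0.28 ± 0.05 in late GN (SD, n = 3). For miR-196a to miR-196b it was 0.71 ± 0.13, 0.74 ± 0.15 and 0.61 ± 0.16, and the groups overlapped in both ratios. The mean of the miR-10 pair against the mean of the miR-196 pair was 3.99 ± 0.12 in control, 3.83 ± 0.12 in early GN and 3.92 ± 0.05 in late GN. Over these 3 ratios and 3 comparisons, the differences between groups ran from -0.17 to 0.09 on the log2 scale. None of the 9 passed an exact two-sided permutation test (p from 0.2 to 1, at least 0.9 after Benjamini-Hochberg adjustment over the 9), and with 3 arrays a group the smallest p that the test allows is 0.1. The largest difference, for the miR-10 pair over the miR-196 pair in early GN, was -0.17 with a standard error of 0.10.

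**Figure D4:**
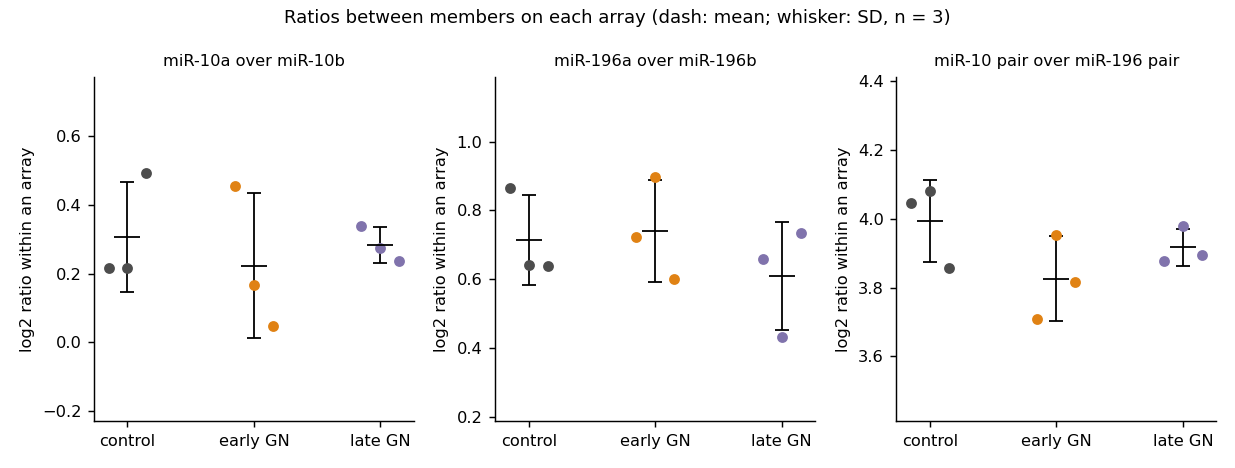
log2 ratio within each array of miR-10a over miR-10b, miR-196a over miR-196b and the mean of the miR-10 pair over the mean of the miR-196 pair, by group, with each axis 1 log2 unit tall; points are arrays, dashes group means and whiskers the SD (n = 3). The groups overlap in each ratio, and their means differ by at most 0.17.

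Across the 9 arrays the members followed each other closely. As a description over arrays that share their groups and scaling, Pearson's r between pairs of members ran from 0.95 to 0.97 on the deposited log2 values and from 0.91 to 0.96 at a common median (6 pairs). The probe most like mmu-miR-10a at a common median was the endothelial miR-126-3p (r = 0.98), before let-7d and miR-145 (both 0.97). Those most like mmu-miR-10b were miR-152 (0.97), miR-23b and miR-23a (both 0.96). miR-379, let-7b and miR-30b were most like mmu-miR-196a (0.99, 0.99 and 0.98), and miR-145, miR-379 and miR-210 most like mmu-miR-196b (0.98, 0.98 and 0.97). In each case these probes correlated more highly with the member than its own family partner did.

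The passenger strands of the miR-10 hairpins, the strand usually discarded when the guide is loaded, gave values of their own. mmu-miR-10a* read 92.7, 102 and 92.9 in control, 37.8, 35.04 and 94.2 in early GN, with 56.5, 64.0 and 62.6 in late GN. As for its guide, every late GN array was below every control array, but early GN array 3 lay inside the control range, where that of the guide lay below it. Early GN gave a log2 fold change of -0.94 and late GN of -0.65, with -0.55 and -0.96 at a common median (limma, adjusted p 0.27, 0.30, 0.051 and 0.0025). mmu-miR-10b* was dim, between 0.82 and 5.73 SDs of the blank spots above their mean. It read 27.9, 28.7 and 28.8 in control, 12.4, 6.13 and 25.02 in early GN, with 15.8, 16.9 and 17.8 in late GN, so every GN array was below every control array. At a common median its early GN value differed by -0.82 and its late GN value by -1.07 on the log2 scale (limma, adjusted p = 0.057 and 0.0089). The log2 ratio of mmu-miR-10a to its passenger strand was 5.35 ± 0.047 in control, 5.33 ± 0.23 in early GN and 5.35 ± 0.21 in late GN (SD, n = 3), a difference well within the spread. For mmu-miR-10b and its passenger strand the ratio was 6.79 ± 0.26, 7.12 ± 0.75 and 6.93 ± 0.14.

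The probes for mmu-miR-196a-1* and mmu-miR-196a-2*, the passenger strands that tell the 2 miR-196a genes apart, were listed on 0 of 9 arrays. Their scanner signals lay between -2.02 and 0.55 SDs of the blank spots from the blank mean, so the array gave no value with which to divide mmu-miR-196a between the Hoxb and Hoxc loci. mmu-miR-196b* was listed on 8 of 9 arrays, missing on early GN array 1, with 16.7, 18.8 and 9.08 in control, 10.6 and 16.3 in early GN, with 16.2, 14.8 and 13.3 in late GN. The late GN arrays lay inside the control range, unlike those of its guide strand, at signals of at most 3.68 blank SDs.

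A further Hox cluster miRNA, miR-615, lies inside the span of Hoxc5 and belongs to neither family. mmu-miR-615-3p read 10.6, 13.7 and 8.45 in control, 5.91, 10.6 and 18.9 in early GN, with 17.5, 19.9 and 17.4 in late GN. Its late GN arrays were all above control on the deposited scale, as were those of 49.1% of all probes. The log2 fold change was 0.77 ± 0.44 (pooled standard error, limma adjusted p = 0.20). At a common median it was 0.45, where late GN and control overlapped (limma adjusted p = 0.077). mmu-miR-615-5p, not listed on early GN array 1 and so left out of the fit, read 12.6, 13.6 and 12.8 in control, 15.6 and 37.4 in early GN, with 26.1, 40.4 and 29.7 in late GN. Both arms were close to the blanks, at no more than 4.51 blank SDs above them for the 3p arm and 6.69 for the 5p arm.

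Among the sequence relatives outside the Hox clusters, miR-99a, miR-99b and miR-100 were all below control in both comparisons, with a median log2 fold change of -0.76 at the early and -0.53 at the late stage on the deposited scale, and 0 of 3 called. At a common median, 2 of 3 were called lower in late GN (limma), where miR-99a was at -0.36 and miR-100 at -0.94. The let-7 family with miR-98 had 9 of 9 probes below control in both comparisons, with medians of -0.89 and -0.63 and none called on the deposited scale. At a common median, 1 of 9 was called lower in early GN and 9 of 9 in late GN. The medians of the members were -0.81 and -0.62, beside -0.38 and 0.45 over all 411 probes.

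Summed markers of the glomerular cell types were also lower in late GN on the deposited scale. The summed intensity of the 8 podocyte-associated miRNAs (the miR-30 family, miR-26a, miR-23b and miR-24) ranged from 67816 to 74866 in control, 29979 to 72280 in early GN and 43762 to 49556 in late GN. For the 2 endothelial miR-126 strands it ranged from 24616 to 27460, 10090 to 21872 and 15470 to 20716 in the same order. For 5 mesangial and smooth muscle miRNAs the sums were 9806 to 10933, 4472 to 9823 and 7548 to 9168. These lists thus had lower sums in late GN than in control, like the members, and their early GN sums spanned a wide range. Single mesangial and smooth muscle miRNAs differed in sign in late GN, with miR-145 at -0.54 and miR-214 at 0.54 on the log2 scale and a list median of -0.13. The leukocyte, tubule and red blood cell markers did not all follow. The 5 leukocyte miRNAs summed to between 223 and 275 in control, 93.9 and 404 in early GN, with 375 to 554 in late GN, and the 4 tubule miRNAs to between 786 and 1142, 367 and 1073, and 1073 and 1274. The 3 red blood cell miRNAs summed to between 868 and 983, 214 and 828, and 461 and 714. Leukocyte sums in late GN were thus above, red blood cell sums below, and tubule sums overlapping those of control. Single miRNAs of these lists also differed in sign in late GN. Of those in the fit, 1 of 4 leukocyte, 1 of 3 tubule and 1 of 2 red blood cell miRNAs were below control. On the log2 scale, miR-150 was at -0.24 and miR-142-3p at 1.25, and miR-204 at -0.99 and miR-194 at 0.48. The red blood cell miR-451 was at -0.83, with a list median of -0.11. No marker was unlisted on every array, and miR-155, miR-215 and miR-144 were missing on some. At a common median, 7 of 8 podocyte-associated, 2 of 2 endothelial and 2 of 5 mesangial and smooth muscle miRNAs were called lower in late GN, against 29.9% of all probes. So were 1 of 3 tubule and 1 of 2 red blood cell miRNAs. Of the leukocyte miRNAs, 1 of 4 was called higher, against 32.1% of all probes. The part of cell composition in the members' lower values was not tested.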

How the data were processed

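Glomerular RNA labelled with Hy5 was hybridized to 3D-Gene arrays, 3 for each of control, early GN and late GN. The deposited values are intensities that the authors background-corrected and globally normalized. They were set against the scanner intensities the authors also deposited. For bright spots, from which the factor was estimated, each was close to the spot median minus the blank mean, times a factor per array. Dim spots could depart from this. On control array 3, with a factor of 1.97, mmu-miR-10b* was 9.94 above the blank mean and its deposited value 28.8. The median of listed values was 25 on every array. The rule for leaving values unlisted is not given in the sources used here. A genome build does not enter these values.

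The 4 members, the lists and the tests were chosen with earlier results of these data known. log2 intensities of the 411 probes listed on all 9 arrays were fitted with limma 3.58.1 (R 4.3.3), with all groups in 1 fit and Benjamini-Hochberg adjustment over the 411, and adjusted p under 0.05 was called. On simulated data with known changes, independent noise and no shifts of whole arrays, the script recovered most of the changes it was given. Those changes were larger than the members' and the real arrays shifted as a whole, so the simulation does not bear on the calls made here. Signals above the blanks without the factor, and arrays at a common median, served as other scales. Named besides the members were their passenger strands, miR-615, the 3 probes best correlated with each member, and listed relatives and cell type markers. Within-array ratios were tested by exact permutation. Python 3.11.15 was used for tables and sequences. Depth has no equivalent on arrays, and the 3 arrays a group limit the precision. Replicate numbers were not used to pair the samples in the main fit. Correlations of deviations between same-numbered arrays ran from -0.22 to 0.34. They cannot settle whether the numbers pair the samples, because differently numbered arrays were not compared.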

Additional observations from a re-analysis of the deposited data

How the results depend on the processing

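In the fit of all 9 arrays to the deposited values no member was called. For late GN against control, all 4 members were called lower at a common median (log2 fold changes -0.96, -0.94, -0.93 and -0.82 for miR-10a, miR-10b, miR-196a and miR-196b, here and below in this order), after normexp and quantile normalization (-0.55, -0.64, -0.59 and -0.49, with 79 of 411 probes lower and 74 higher), with the 75th percentile of listed probes (-0.81, -0.84, -0.85 and -0.75, 75 lower and 105 higher) or of all probes (-1.10, -1.12, -1.14 and -1.04, 123 lower and 37 higher), and, at the main values of -0.65, -0.62, -0.61 and -0.51, in a limma fit of only the groups compared (72 lower and 200 higher) and by the methods' t-test (58 lower and 171 higher). At a common median 123 were lower and 132 higher, against 1 and 16 on the deposited scale. For early GN, miR-10a was called at a common median (-0.57, 1 member) and 3 members after normexp and quantile normalization (miR-10a -0.53, miR-10b -0.45, miR-196b -0.28, with 26 of 411 probes lower and 28 higher). Scaling on the spike controls, unscaled scanner signals, a pseudocount of 16, the series table, a wider set of 486 probes, trend and robust moderation, slide as a random block and the replicate block left the number of members called at 0 in both comparisons with control. Late GN against early GN turned negative at a common median (-0.39, -0.45, -0.58 and -0.45), after normexp and quantile normalization (-0.03, -0.19, -0.33 and -0.21), with the 75th percentile of listed probes (-0.21, -0.31, -0.47 and -0.36) or of all probes (-0.51, -0.60, -0.77 and -0.65), and for miR-196a alone on the spike controls (-0.03) and unscaled (-0.08). The cause was not tested.

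With single arrays left out, early GN against control ranged from -1.31 to -0.73, -1.31 to -0.53, -1.10 to -0.51 and -1.20 to -0.54, late GN against control from -0.71 to -0.58, -0.76 to -0.51, -0.70 to -0.49 and -0.56 to -0.44, and late GN against early GN from 0.09 to 0.66, -0.09 to 0.69, -0.10 to 0.49 and 0.03 to 0.69. The number of members called ranged from 0 to 4 in each comparison, with 4 only where early GN array 3 was left out, a setting that called 232, 56 and 376 of the 411 probes in the same direction. With the replicate number as a block, the early GN values stayed at -0.96, -0.87, -0.73 and -0.76 and the late GN values at -0.65, -0.62, -0.61 and -0.51, and no call changed. At a common median with slide as a random block, miR-10b (-0.52) and miR-196b (-0.41) were also called lower in early GN. miR-196a (-0.57) was called lower in late GN than in early GN, with a negative slide correlation of -0.34. This setting called more probes in general. It called 15.6% of all probes lower in early GN, against 3.89% at a common median without the block. For late GN against early GN the shares called lower were 8.27% and 0.243%. No within-array ratio moved by more than its spread under any alternative run. The unscaled signals, and the settings combined with a common median, were chosen after seeing the data.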
